A study of Danio rerio with 6 samples.

Results

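High-Fli1+ cells were compared with Low-Fli1+ cells of Tg(fli1:EGFP) zebrafish by RNA sequencing, with 2 libraries of each population. High-Fli1+ cells had more RNA of cartilage collagens and proteoglycans, of Dlx and other pharyngeal arch regulators, and of some endothelial genes, and less RNA of globins, neutrophil and macrophage genes, and neuronal and retinal genes. The comparison took every gene with a mean of at least 0.5 FPKM over these 4 libraries, which kept 18208 of 29126 named genes. FPKM counts sequenced fragments relative to transcript length and to the total of the library. All 4 libraries, and the 2 libraries of Fli1- cells that complete the series, carry the same Tg(fli1:EGFP) genotype, and the labels give no treatment. In this line a green fluorescent protein is expressed under regulatory sequence of fli1a, so the population names refer to reporter level. The labels give neither the stage of the fish nor the way the populations were separated. They do not say that replicates came from separate embryos or separate sorts, so p-values measure the spread between these libraries, which may be technical. By its title the study is about angiogenesis and an LMO2 and PRDM16 axis, and the comparison asks how strong and weak reporter cells differ.

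Fli1 is a transcription factor of the ETS family that acts early in blood and vessel development. In zebrafish embryos a fli1a reporter lights vessels, the pharyngeal arches and part of the blood cells. In the arches, neural crest cells build the cartilage of the jaw and gills. Cartilage cells fill their matrix with collagens II, IX and XI and with aggrecan, under control of Sox9. Endothelial cells line vessels and carry receptors such as Tie1 and vascular endothelial growth factor receptors. Each library is bulk RNA, so fewer cells of a type and less RNA per cell cannot be told apart.

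The gene behind the reporter, fli1a, stood at 241 and 192 FPKM in High-Fli1+, against 66.8 and 52.0 in Low-Fli1+ and 1.04 and 5.55 in Fli1- libraries. Every reporter-positive library lay above every Fli1- library, and both High-Fli1+ libraries lay above both Low-Fli1+ libraries. The difference between the reporter-positive populations did not pass the threshold of 0.05 in limma (log2 fold change of 1.85 with SE 0.54, adjusted p = 0.0999). All fold changes here are High-Fli1+ over Low-Fli1+ on log2(FPKM + 1), which understates the change of low genes. Its paralogue fli1b had 7.56 and 8.95 FPKM in High-Fli1+ libraries, against 21.4 and 8.25 in Low-Fli1+ libraries, so the populations overlapped (log2 fold change -0.64, adjusted p = 0.524).

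Replicates agreed to different degrees. Pearson's r across genes, which are not independent replicates, was 0.882 between the High-Fli1+ libraries, 0.706 between the Low-Fli1+ libraries and 0.941 between the Fli1- libraries. Low-Fli1+ replicate 2 had a higher r with each of the 4 other-population libraries, between 0.718 and 0.760, than with its own pair. Of the genes compared, 8.91% and 10.1% were at 0 in the High-Fli1+ libraries, 19.5% and 12.5% in the Low-Fli1+ libraries and 5.53% and 5.13% in the Fli1- libraries. The Low-Fli1+ libraries were more than 4-fold apart on FPKM + 1 at 3323 genes, the High-Fli1+ libraries at 852 and the Fli1- libraries at 210. On the first principal component, with 44.5% of the variance, the High-Fli1+ libraries stood apart from the rest, and on the second, with 25.4%, Low-Fli1+ replicate 1 stood alone. One non-coding RNA, Metazoa_SRP, held 27.4% of the FPKM sum in High-Fli1+ replicate 2 and between 1.77% and 13.2% in the other libraries. In each population its percentage was higher in replicate 2 than in replicate 1. FPKM values are relative to a library's total, but also to transcript length, so these percentages are not shares of fragments. The number of sequenced fragments is not known, and counting errors are not given.

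Of the 18208 genes, limma called 253 higher (1.39%) and 905 lower (4.97%) in High-Fli1+ than in Low-Fli1+ cells at an adjusted p under 0.05, 6.36% in all. At an unadjusted p under 0.05 there were 1492 higher and 2992 lower genes. The median log2 fold change over all genes was -0.19. Median-ratio scaling moved it to 0.11 and gave 437 higher and 672 lower calls, so that 39.4% of calls were higher instead of 21.8%. Quantile normalization moved it to 0.04 and gave 290 higher and 638 lower calls. In each of these and the other settings tried, every one of the 1158 genes that was still tested kept its sign. Both High-Fli1+ libraries lay above both Low-Fli1+ libraries at 18.8% of genes and below them at 29.9%.

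**Figure D1:**
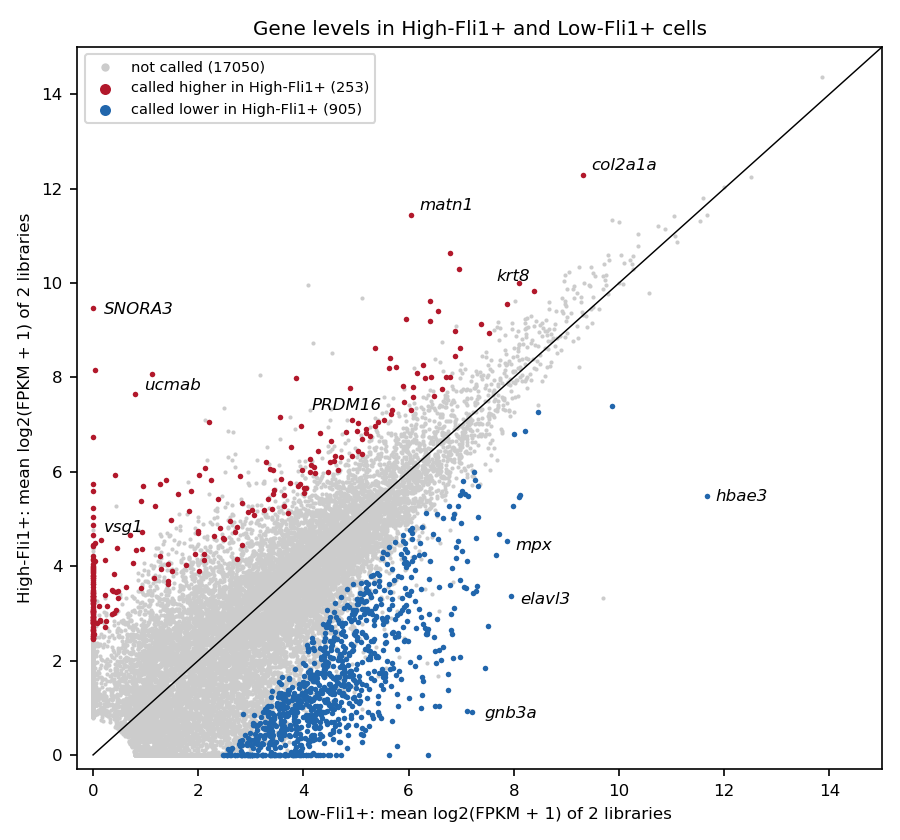
Mean log2(FPKM + 1) in High-Fli1+ libraries (vertical axis) against that in Low-Fli1+ libraries (horizontal axis) for the 18208 genes, 2 libraries in each mean. Coloured points are the 253 genes called higher and the 905 called lower in High-Fli1+ cells, and labelled genes such as matn1 and hbae3 lie far from the line of equal level.

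The number of calls changed when 1 library was left out. Each such fit has 2 residual degrees of freedom instead of 3, and all 1158 genes kept their sign in it. Leaving out a Fli1- library alters only the spread estimate, not the fold changes. A population left with 1 library adds nothing to that estimate, so fits without a Low-Fli1+ library ignore the Low-Fli1+ spread. Calls kept or lost in these fits, here and below, therefore do not measure how well a gene is supported. The 0 without a High-Fli1+ library holds for all lists. Leaving out either High-Fli1+ library left 0 calls by limma, with 3828 and 3410 genes at an unadjusted p under 0.05 and smallest adjusted p-values of 0.0662 without replicate 1 and 0.0831 without replicate 2. Without Low-Fli1+ replicate 1 there were 614 calls, of which 340 were among the 1158, and leaving out replicate 2 gave 2511, of which 901 were. The Fli1- libraries enter the model through the shared estimate of spread, and 20 and 21 calls remained without Fli1- replicates 1 and 2. Of the 93 calls named by rule, 52 remained with Low-Fli1+ replicate 1 left out, 78 with replicate 2, 12 and 13 with Fli1- replicate 1 or 2, and 0 with either High-Fli1+ library. The model takes 1 spread per gene for all populations, although the Fli1- replicates were the closest together and the Low-Fli1+ replicates the furthest apart. Where the compared libraries vary more than this shared spread, the SE and adjusted p given here are too small. A model of the 4 High-Fli1+ and Low-Fli1+ libraries alone gave 10 calls. No exact permutation test of 2 libraries against 2 can give a p below 0.333.

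**Figure D2:**
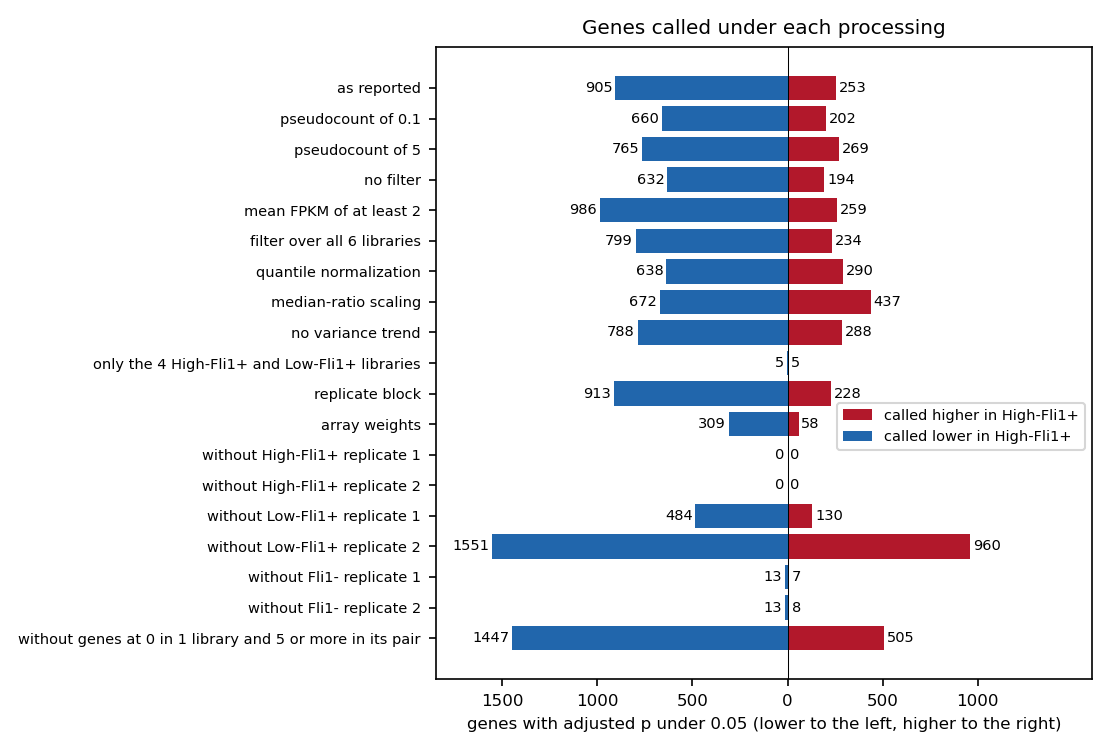
Number of genes called in High-Fli1+ against Low-Fli1+ cells (horizontal axis) under each setting (vertical axis), with genes called higher drawn to the right and those called lower to the left. The counts fall furthest without a High-Fli1+ library and fall steeply without a Fli1- library. Other scalings, pseudocounts and filters leave between 826 and 1245, except that dropping genes at 0 in 1 library and at 5 FPKM or more in its pair leaves 1952.

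Cartilage matrix genes were among the 12 largest higher calls by fold change, where the small nucleolar RNA SNORA3 came first. Matn1, which encodes the cartilage matrix protein matrilin 1, had 3214 and 2432 FPKM in High-Fli1+ libraries, against 50.7 and 82.8 in Low-Fli1+ libraries and 3.06 and 10.1 in Fli1- libraries. The populations were far apart at every replicate (log2 fold change of 5.41 with SE 0.51, adjusted p = 0.00839). Ucmab, which encodes a vitamin K-dependent protein of the cartilage matrix, had 166 and 237 FPKM in High-Fli1+, against 2.05 and 0 in Low-Fli1+ (log2 fold change of 6.83 with SE 0.68, adjusted p = 0.00903). The tenascin gene tnxba, for a large glycoprotein of connective tissue, had 146 and 121 FPKM in High-Fli1+, against 3.79 and 3.49 in Low-Fli1+ (log2 fold change of 4.85 with SE 0.44, adjusted p = 0.00829).

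Other genes among the 12 largest higher calls were at 0 in Low-Fli1+ libraries. Pcolceb, which encodes an enhancer of procollagen processing, had 59.0 and 46.7 FPKM in High-Fli1+ libraries, was listed at 0 in both Low-Fli1+ libraries and had 0.396 and 0 in Fli1- libraries (adjusted p = 0.00839). The secreted protein gene mia had 25.5 and 51.8 FPKM in High-Fli1+ libraries and was listed at 0 in the other 4 libraries (adjusted p = 0.0118). Ptgdsa, a prostaglandin D synthase gene by name, had 32.5 and 18.2 FPKM in High-Fli1+ libraries and was listed at 0 in both Low-Fli1+ libraries (adjusted p = 0.0167). For these 3 genes the High-Fli1+ libraries stood above all 4 others. The fibrillar collagen gene col24a1 had 49.9 and 55.5 FPKM in High-Fli1+, against 4.88 and 0 in Low-Fli1+ (log2 fold change of 4.47 with SE 0.85, adjusted p = 0.0369).

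Not all of the 12 largest higher calls set High-Fli1+ cells apart from Fli1- cells. Snrpg, which encodes a core protein of the spliceosome, had 20.4 and 49.8 FPKM in High-Fli1+ libraries, was listed at 0 in both Low-Fli1+ libraries and had 21.6 and 25.5 in Fli1- libraries (adjusted p = 0.00907). The small nucleolar RNA SNORA3 had 1105 and 451 FPKM in High-Fli1+ libraries, 0 in both Low-Fli1+ libraries and 560.3 and 463 in Fli1- libraries (adjusted p = 0.00286). In both, the Low-Fli1+ libraries stood apart from the other 4. SNORD97 had 225 and 319 FPKM in High-Fli1+, against 3.74 and 0 in Low-Fli1+ and 37.4 and 60.8 in Fli1- (log2 fold change of 6.95 with SE 0.72, adjusted p = 0.00960), and SNORA35 had 37.5 and 60.1 FPKM in High-Fli1+ libraries with 0 in all 4 others (adjusted p = 0.00839). Of 23 small nucleolar RNA entries tested, 3 were called higher and 0 lower, while 1.39% of all genes were called higher and 4.97% lower. Of the 23, 9 and 5 were at 0 in High-Fli1+ libraries and 7 and 8 in Fli1- libraries. Low-Fli1+ libraries had 19 and 12 of the 23 at 0. Over all genes tested the shares at 0 there were 19.5% and 12.5%, so zeros made up a larger share of these entries. For the other libraries, zeros made up between 5.13% and 10.1% of all genes tested.

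**Figure D3:**
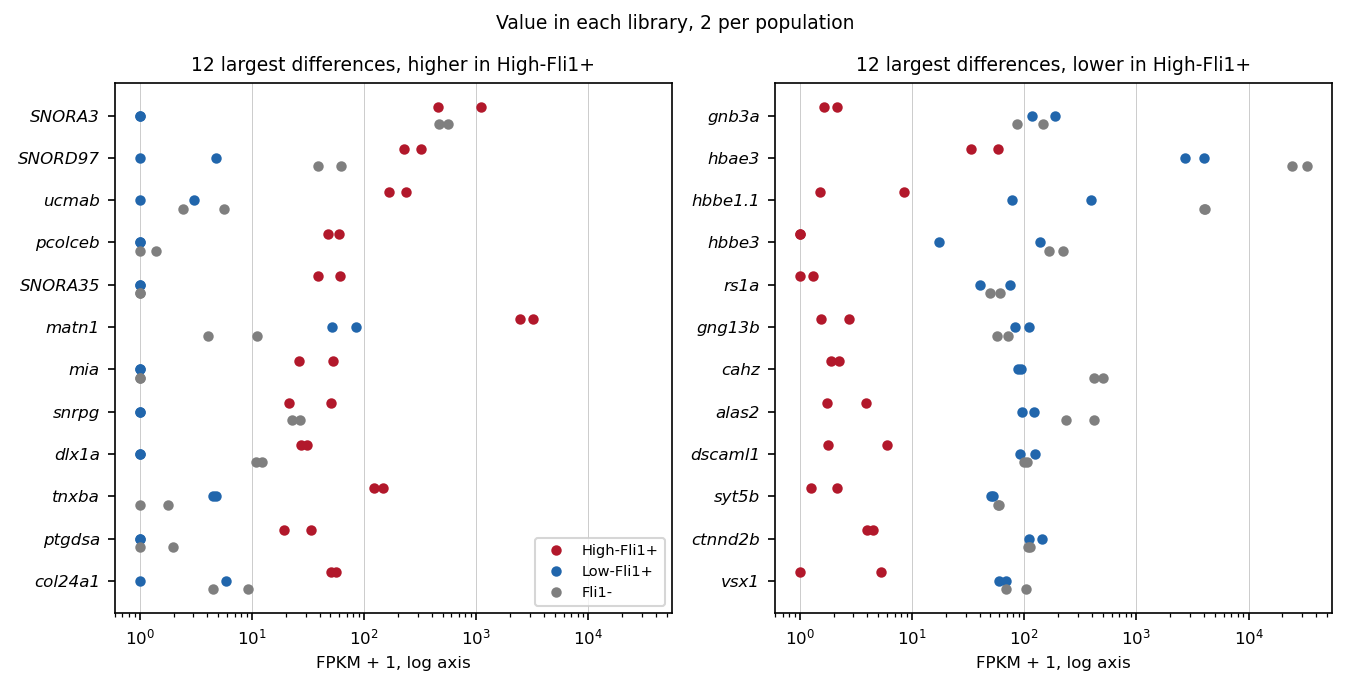
FPKM + 1 in each library (horizontal axis, log scale) of the 12 genes with the largest higher calls and the 12 with the largest lower calls that the naming rule chose (vertical axis), with 2 points for each of the High-Fli1+, Low-Fli1+ and Fli1- populations. Points at 1 are values of 0 FPKM, which the Low-Fli1+ libraries show for genes such as pcolceb, mia and snrpg.

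All 12 largest higher calls kept their sign whichever library was left out. Counts of calls kept in those fits have the limits given above. All 12 remained without Low-Fli1+ replicate 2, 10 when replicate 1 was left out, 3 without either Fli1- library and 0 without either High-Fli1+ library. Among the genes called higher, 128 were at 0 in at least 1 Low-Fli1+ library and 125 were above 0 in both. Of 1124 genes at 0 in both Low-Fli1+ libraries, 90 were called higher, against 253 (1.39%) of all 18208 genes tested. Such genes passed the filter through their High-Fli1+ values alone and could not be called lower, so these shares are not alike. In Fli1- libraries 36 of these 90 had a mean of at least 5 FPKM, as snrpg did, and 24 a mean under 1, as pcolceb did. The part of the larger share of zeros in Low-Fli1+ libraries in these calls was not tested.

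Of the 29 gene lists described here, cartilage and bone had the most members called higher. Of 42 names 37 were found in the table and 35 passed the filter. Of these 14 were called higher and 0 lower by limma (24 and 0 at an unadjusted p under 0.05), with a median log2 fold change of 1.68 against -0.19 over all genes. Calls made up 40% of the tested members, against 6.36% of all genes. Both High-Fli1+ libraries lay above both Low-Fli1+ libraries at 30 members and below at 1, against 18.8% and 29.9% of all genes. The lists were chosen with earlier results of these data known. Counts and medians set against all genes, here and below, therefore describe the lists and are not independent support. Of the 14 calls, 7 remained with Low-Fli1+ replicate 1 left out, 13 with replicate 2 left out, 3 and 4 with Fli1- replicate 1 or 2 left out, and 0 with either High-Fli1+ library left out.

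Collagens of the cartilage fibril were, with matn1, the most abundant of the genes called higher. Collagen II, the main fibril protein of cartilage, is encoded by col2a1a, which had 5432 and 4666 FPKM in High-Fli1+ libraries, against 674 and 600.2 in Low-Fli1+ libraries and 55.2 and 73.5 in Fli1- libraries (log2 fold change of 2.98 with SE 0.30, adjusted p = 0.00912). Its paralogue col2a1b had 1101 and 961 FPKM in High-Fli1+, against 253 and 299 in Low-Fli1+ (log2 fold change of 1.90 with SE 0.29, adjusted p = 0.0217). The values of the populations were well separated for both copies.

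Collagens XI and IX, which set the width and the surface of collagen II fibrils, gave further calls. Col11a2 had 1776 and 1440.2 FPKM in High-Fli1+, against 103 and 115 in Low-Fli1+ (log2 fold change of 3.86 with SE 0.28, adjusted p = 0.00554), and col11a1a had 1315 and 1202 FPKM in High-Fli1+, against 120.3 and 126 in Low-Fli1+ (log2 fold change of 3.34 with SE 0.34, adjusted p = 0.00905). The collagen IX chains col9a1a, col9a2 and col9a3 were higher by 2.85, 3.21 and 2.76 on the log2 scale (adjusted p = 0.00578, 0.00520 and 0.0133). Col9a2 had 796 and 764 FPKM in High-Fli1+, against 84.6 and 82.7 in Low-Fli1+, with replicates closer together than the populations by a wide margin. Col11a1b, with 279 and 251 FPKM in High-Fli1+, against 157 and 182 in Low-Fli1+ (log2 fold change 0.64, adjusted p = 0.262), and col9a1b, with 9.30 and 3.90 FPKM in High-Fli1+, against 0.874 and 2.96 in Low-Fli1+ (log2 fold change 1.38, adjusted p = 0.259), were not called, although the populations did not overlap. Col9a2 is also the 1 call of the 8 tested notochord, hatching gland and otic genes.

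Proteoglycans and the cartilage regulator Sox9 followed. Aggrecan, which holds water in cartilage, is encoded by acana, with 422 and 362 FPKM in High-Fli1+, against 33.5 and 47.7 in Low-Fli1+ (log2 fold change of 3.26 with SE 0.30, adjusted p = 0.00839), and by acanb, with 168 and 119.6 FPKM in High-Fli1+, against 9.13 and 12.6 in Low-Fli1+ (log2 fold change of 3.61 with SE 0.45, adjusted p = 0.0140). Epyc, for the small proteoglycan epiphycan, had 620.1 and 555 FPKM in High-Fli1+, against 119 and 58.8 in Low-Fli1+ (log2 fold change of 2.79 with SE 0.52, adjusted p = 0.0349). Hapln1a, for the link protein that fixes aggrecan to hyaluronan, had 508 and 472 FPKM in High-Fli1+, against 153 and 219 in Low-Fli1+ (log2 fold change of 1.41 with SE 0.31, adjusted p = 0.0496). Sox9a, the transcription factor gene required for cartilage, had 804 and 691 FPKM in High-Fli1+, against 217 and 248 in Low-Fli1+ (log2 fold change of 1.68 with SE 0.26, adjusted p = 0.0223). In each of these 5 genes both High-Fli1+ libraries lay above both Low-Fli1+ libraries, as at 18.8% of all genes. Sox9b, the paralogue of sox9a, had 21.4 and 12.7 FPKM in High-Fli1+, against 23.5 and 14.0 in Low-Fli1+. There the populations overlapped, without a call (log2 fold change -0.13, adjusted p = 0.864).

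Some genes of later cartilage and of bone lay higher in High-Fli1+ libraries without passing the threshold. Col10a1a, a collagen of hypertrophic cartilage and of bone cells in fish, had 97.6 and 77.0 FPKM in High-Fli1+, against 47.1 and 34.0 in Low-Fli1+ (adjusted p = 0.155). Sp7, which encodes the osteoblast regulator osterix, had 6.56 and 2.07 FPKM in High-Fli1+, against 1.85 and 2.06 in Low-Fli1+ (adjusted p = 0.530). Runx2b, for another regulator of bone formation, had 24.6 and 16.4 FPKM in High-Fli1+, against 6.32 and 3.09 in Low-Fli1+ (adjusted p = 0.0841). Spp1, the osteopontin gene, had 6.94 and 3.14 FPKM in High-Fli1+, against 0 and 3.34 in Low-Fli1+ (adjusted p = 0.362).

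Collagens of the mural and fibroblast list were not called, and their fold changes differed in sign. Col1a1a, a chain of the collagen I of skin, tendon and bone, had 989 and 783 FPKM in High-Fli1+, against 1168 and 1979 in Low-Fli1+ (log2 fold change -0.79, adjusted p = 0.321), so both High-Fli1+ libraries lay below both Low-Fli1+ libraries without a call. Col1a2 had 498 and 413 FPKM in High-Fli1+, against 392 and 525 in Low-Fli1+ (log2 fold change 0.00), and the populations overlapped. Col6a1 had 106 and 92.7 FPKM in High-Fli1+, against 42.5 and 42.6 in Low-Fli1+ (adjusted p = 0.190), and col6a2 had 173 and 129 FPKM in High-Fli1+, against 96.3 and 61.5 in Low-Fli1+ (log2 fold change 0.95, adjusted p = 0.155), so for these collagen VI chains both High-Fli1+ libraries lay above both Low-Fli1+ libraries. Col5a1, with a log2 fold change of 0.32, also lay above without overlap, and col6a3, with 0.54, overlapped. Col5a2a, with -0.29, lay below without overlap, and median-ratio scaling turned its sign. These genes were named after their values were seen, and the difference from the cartilage collagens was not tested. Of 31 mural and fibroblast genes tested, foxc1b, for a forkhead factor of mesenchyme, was the 1 call, with 166 and 189 FPKM in High-Fli1+, against 57.6 and 60.9 in Low-Fli1+ (log2 fold change of 1.56 with SE 0.33, adjusted p = 0.0475). At an unadjusted p under 0.05 there were 12 higher and 1 lower, and the list's median was 0.64. The called share was 3.23%, against 6.36% of all genes.

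Several regulators of the pharyngeal arches were higher in High-Fli1+ cells, and a pair of neural crest genes was lower. Of 39 names 38 were found in the table and 34 passed the filter, and 8 were called higher and 2 lower by limma (19 and 3 at an unadjusted p under 0.05), with a median of 1.42. Calls made up 29.4% of the tested members, against 6.36% of all genes. Sox9a is in this list as well as in the cartilage list. Of the 8 higher calls, 2 remained with Low-Fli1+ replicate 1 left out, 8 with replicate 2 left out, 0 and 0 with Fli1- replicate 1 or 2 left out, and 0 with either High-Fli1+ library left out.

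Dlx genes encode homeobox factors that give the arches their pattern along the upper and lower jaw. Dlx1a had 30.1 and 26.3 FPKM in High-Fli1+ libraries, was listed at 0 in both Low-Fli1+ libraries and had 11.2 and 9.88 in Fli1- libraries (adjusted p = 0.00738). Dlx3b had 35.6 and 39.7 FPKM in High-Fli1+, against 0 and 4.08 in Low-Fli1+ (log2 fold change of 4.099 with SE 0.78, adjusted p = 0.0369), and dlx4a had 39.1 and 52.7 FPKM in High-Fli1+, against 0.887 and 3.99 in Low-Fli1+ (log2 fold change of 3.92 with SE 0.70, adjusted p = 0.0320). Dlx4b had 8.80 and 7.74 FPKM in High-Fli1+ libraries and was listed at 0 in both Low-Fli1+ libraries (adjusted p = 0.0320). In all 4 genes the populations did not overlap, as at 18.8% of all genes in this direction. Dlx2a, with 30.4 and 19.5 FPKM in High-Fli1+, against 0 and 6.67 in Low-Fli1+, and dlx5a, with 35.04 and 31.6 FPKM in High-Fli1+, against 0 and 10.8 in Low-Fli1+, lay on the same side without a call (adjusted p = 0.102 and 0.118).

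Further arch regulators had the same direction. Barx1, a homeobox gene of arch cartilage, had 59.0 and 52.1 FPKM in High-Fli1+, against 0 and 5.92 in Low-Fli1+ (log2 fold change of 4.42 with SE 0.94, adjusted p = 0.0476), and its Low-Fli1+ libraries were 0 and a low value. Gsc, the goosecoid homeobox gene, had 77.5 and 67.5 FPKM in High-Fli1+, against 9.64 and 7.95 in Low-Fli1+ (log2 fold change of 2.91 with SE 0.42, adjusted p = 0.0184). Emx2, a homeobox gene also used in brain and ear, had 14.0 and 17.3 FPKM in High-Fli1+, against 1.03 and 2.54 in Low-Fli1+ and 11.14 and 7.48 in Fli1- libraries (log2 fold change of 2.63 with SE 0.49, adjusted p = 0.0339), so Fli1- libraries lay between the others there.

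The AP-2 genes, which act in neural crest and in skin and nervous tissue, were the lower calls. Tfap2a had 20.4 and 15.5 FPKM in High-Fli1+, against 78.6 and 66.4 in Low-Fli1+ and 93.2 and 72.1 in Fli1- libraries (log2 fold change of -1.96 with SE 0.28, adjusted p = 0.0180). Tfap2b had 7.72 and 7.56 FPKM in High-Fli1+, against 59.6 and 27.1 in Low-Fli1+ and 77.1 and 62.0 in Fli1- libraries (log2 fold change of -2.25 with SE 0.41, adjusted p = 0.0320). For both genes every High-Fli1+ library lay below the other 4. Both calls remained without Low-Fli1+ replicate 2 and neither without any of the other 5 libraries. Mesenchymal factors such as twist1a, with 77.5 and 97.1 FPKM in High-Fli1+, against 35.4 and 27.8 in Low-Fli1+, did not overlap between the populations but were not called (adjusted p = 0.0740).

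**Figure D4:**
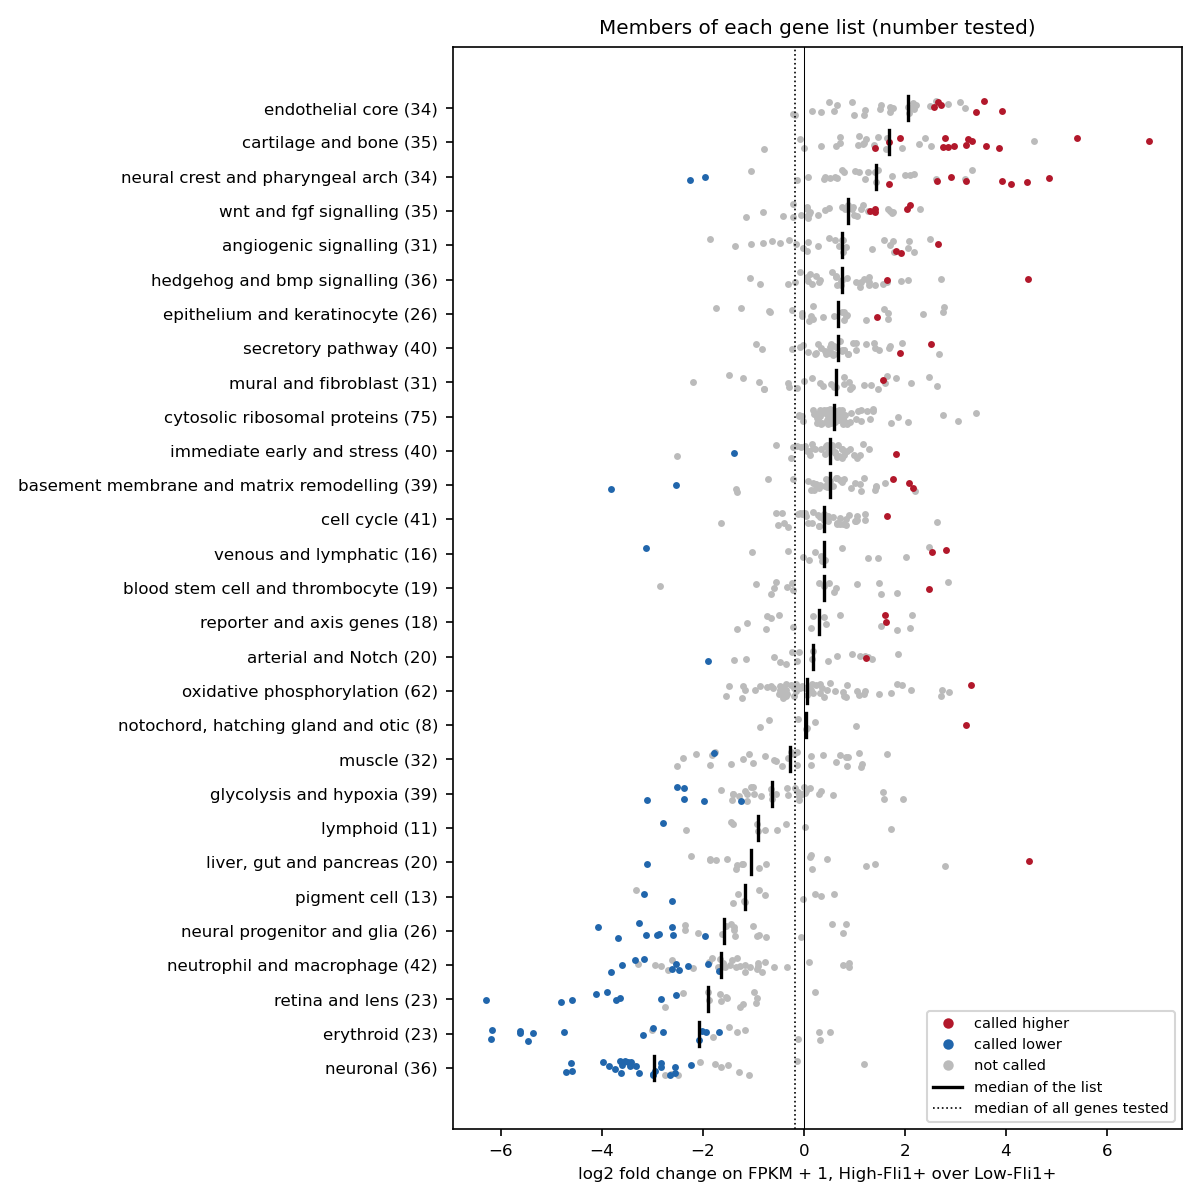
Log2 fold change of High-Fli1+ over Low-Fli1+ (horizontal axis, on FPKM + 1) of the tested members of 29 gene lists (vertical axis), with members called higher in red and lower in blue, each list's median as a bar and the median of all genes as a dotted line. Cartilage and arch members lie mostly above 0, while erythroid, neuronal and retinal members lie mostly below.

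The list of basement membrane and matrix remodelling genes also holds enzymes and chaperones of collagen, which gave its higher calls. Of 41 names 39 were found in the table and 39 passed the filter, and 3 were called higher and 2 lower by limma (12 and 3 at an unadjusted p under 0.05). The called share was 12.8%, against 6.36% of all genes. P4ha1b, a subunit of the prolyl hydroxylase that stabilizes collagen, had 67.6 and 86.0 FPKM in High-Fli1+, against 15.7 and 17.1 in Low-Fli1+ (log2 fold change of 2.15 with SE 0.28, adjusted p = 0.0151). Serpinh1a, a copy of the collagen chaperone Hsp47, had 73.2 and 57.8 FPKM in High-Fli1+, against 11.4 and 18.6 in Low-Fli1+ (log2 fold change of 2.08 with SE 0.39, adjusted p = 0.0351), and plod2, a lysyl hydroxylase of collagen cross-linking, had 78.6 and 49.0 FPKM in High-Fli1+, against 14.4 and 21.6 in Low-Fli1+ (log2 fold change of 1.76 with SE 0.37, adjusted p = 0.0476). The populations did not overlap in all 3 genes, as at 18.8% of all genes in this direction. The other lysyl, prolyl and chaperone genes of the list, such as serpinh1b with 1562 and 840.4 FPKM in High-Fli1+, against 463 and 539 in Low-Fli1+, were not called (adjusted p = 0.104).

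Basement membrane genes, laminins and collagen IV among them, had no call in either direction. The list's lower calls were the collagenase and gelatinase genes mmp13a and mmp9, which neutrophils, macrophages and wounded tissue make and which also count as myeloid below. In the secretory pathway, which carries matrix proteins out of the cell, 2 were called higher and 0 lower by limma (13 and 1 at an unadjusted p under 0.05), of 40 tested. Kdelr2a and kdelr2b encode receptors that return proteins to the endoplasmic reticulum. Kdelr2b had 39.0 and 40.1 FPKM in High-Fli1+, against 3.83 and 9.37 in Low-Fli1+ (log2 fold change 2.52, adjusted p = 0.0274), and kdelr2a had 68.7 and 67.0 FPKM in High-Fli1+, against 21.3 and 14.1 in Low-Fli1+ (log2 fold change 1.91, adjusted p = 0.0231). The median of the list was 0.67, with 35 of 40 members above 0 in log2 fold change against 43.1% of all genes. The 2 calls are 5% of the list, against 6.36% of all genes. Both calls remained with either Low-Fli1+ library left out and were lost with either Fli1- library left out (adjusted p between 0.101 and 0.114) or either High-Fli1+ library left out (between 0.123 and 0.171).

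Endothelial genes lay mostly above in High-Fli1+ cells, and 6 of them were called. Of 37 names 35 were found in the table and 34 passed the filter, and 6 were called higher and 0 lower by limma (21 and 0 at an unadjusted p under 0.05). Calls made up 17.6% of the tested members, against 6.36% of all genes. The median log2 fold change was 2.07, and both High-Fli1+ libraries lay above both Low-Fli1+ libraries at 27 members and below at 1, against 18.8% and 29.9% of all genes. The mean log2(FPKM + 1) of the tested members was 3.38 and 3.41 in High-Fli1+, against 1.52 and 1.59 in Low-Fli1+ and 1.57 and 1.37 in Fli1- libraries. By this measure Low-Fli1+ and Fli1- libraries overlapped, below the High-Fli1+ libraries. Of the 6 calls, 3 remained with Low-Fli1+ replicate 1 left out, 6 with replicate 2 left out, 0 and 0 with Fli1- replicate 1 or 2 left out, and 0 with either High-Fli1+ library left out. A pseudocount of 0.1 kept 2 of them, the replicate block 3 and array weights 1.

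Several endothelial markers stood at or near 0 in the Low-Fli1+ libraries. Vsg1, the plasmalemma vesicle-associated protein of vessel walls, had 21.1 and 18.6 FPKM in High-Fli1+, against 0 and 0.860 in Low-Fli1+ (log2 fold change of 3.93 with SE 0.55, adjusted p = 0.0180). Clec14a, for a lectin-like receptor of endothelium, had 9.76 and 9.37 FPKM in High-Fli1+ libraries and was listed at 0 in the other 4 (adjusted p = 0.0228). Rasip1, which is needed for vessel lumens in mice, had 11.4 and 10.3 FPKM in High-Fli1+ libraries and was listed at 0 in both Low-Fli1+ libraries (adjusted p = 0.0213). Myct1a had 5.19 and 5.91 FPKM in High-Fli1+ libraries and was likewise at 0 in both Low-Fli1+ libraries (adjusted p = 0.0440). Tie1, an endothelial receptor kinase, had 14.3 and 14.3 FPKM in High-Fli1+, against 1.26 and 1.62 in Low-Fli1+ (log2 fold change of 2.66 with SE 0.52, adjusted p = 0.0395), and the adaptor gene she had 10.4 and 14.9 FPKM in High-Fli1+, against 1.66 and 0.887 in Low-Fli1+ (log2 fold change of 2.59 with SE 0.54, adjusted p = 0.0451).

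The best known vessel markers lay on the same side short of a call. Kdrl, a zebrafish receptor for vascular endothelial growth factor, had 15.06 and 18.1 FPKM in High-Fli1+, against 1.98 and 4.80 in Low-Fli1+ (log2 fold change 2.07, adjusted p = 0.0794). Cdh5, the vascular cadherin, had 14.4 and 17.0 FPKM in High-Fli1+, against 2.81 and 0 in Low-Fli1+ (log2 fold change 3.09, adjusted p = 0.0687), and pecam1 had 11.3 and 12.96 FPKM in High-Fli1+, against 2.29 and 0 in Low-Fli1+ (log2 fold change 2.86, adjusted p = 0.0707). In all 3 the populations did not overlap, as at 18.8% of all genes in this direction. These genes were named after their values were seen.

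In angiogenic signalling 3 were called higher and 0 lower by limma (11 and 2 at an unadjusted p under 0.05), of 31 tested, with a median of 0.75. The called share was 9.68%, against 6.36% of all genes. The flow-responsive Krüppel-like factor genes klf2a and klf2b were called beside tie1. Klf2b had 235 and 213 FPKM in High-Fli1+, against 68.3 and 50.0 in Low-Fli1+ and 15.5 and 12.1 in Fli1- libraries (log2 fold change of 1.92 with SE 0.27, adjusted p = 0.0183), and klf2a had 108 and 122 FPKM in High-Fli1+, against 29.0 and 34.2 in Low-Fli1+ and 4.47 and 6.06 in Fli1- libraries (log2 fold change of 1.83 with SE 0.28, adjusted p = 0.0210). The 3 populations did not overlap for either gene. High-Fli1+ libraries lay above both Low-Fli1+ libraries at 18.8% of all genes, and the share with the full order was not counted. All 3 calls remained without Low-Fli1+ replicate 2, that of klf2b also without replicate 1, and none without a Fli1- or a High-Fli1+ library. Array weights left none.

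The arterial and Notch list was split. Of 20 genes tested, 1 was called higher and 1 lower by limma (4 and 3 at an unadjusted p under 0.05), with a median of 0.18. The called share was 10%, against 6.36% of all genes. Hey1, a Notch target, had 229.6 and 289 FPKM in High-Fli1+, against 94.6 and 125 in Low-Fli1+ (log2 fold change of 1.24 with SE 0.26, adjusted p = 0.0459). Dlc, a Notch ligand gene, had 10.9 and 22.8 FPKM in High-Fli1+, against 53.2 and 71.2 in Low-Fli1+ and 36.8 and 52.0 in Fli1- libraries (log2 fold change of -1.90 with SE 0.41, adjusted p = 0.0487). Dll4, the Notch ligand of arteries and sprouting tips, had 20.8 and 22.9 FPKM in High-Fli1+, against 7.02 and 3.90 in Low-Fli1+ (log2 fold change 1.86, adjusted p = 0.0550), without overlap and short of a call. The dlc call was lost whichever of the 6 libraries was left out, and that of hey1 remained without Low-Fli1+ replicate 2 alone.

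In the venous and lymphatic list 2 were called higher and 1 lower by limma (5 and 2 at an unadjusted p under 0.05), of 16 tested. Calls made up 18.75% of the tested members, against 6.36% of all genes. Stab2, a scavenger receptor of veins, had 4.64 and 5.16 FPKM in High-Fli1+, against 0 and 0.0205 in Low-Fli1+ (log2 fold change of 2.55 with SE 0.54, adjusted p = 0.0474). Dab2, an endocytic adaptor, had 6.87 and 5.23 FPKM in High-Fli1+ libraries, with 0 in both Low-Fli1+ libraries and 2.69 and 3.53 in Fli1- libraries (adjusted p = 0.0369). Prox1a went the other way. It encodes a homeobox factor of lymphatic fate that is also made in lens, retina, liver and muscle, and had 6.96 and 5.42 FPKM in High-Fli1+, against 72.5 and 52.0 in Low-Fli1+ and 60.5 and 49.0 in Fli1- libraries (log2 fold change of -3.13 with SE 0.30, adjusted p = 0.00843). Low-Fli1+ and Fli1- values overlapped there. The prox1a call remained with either Low-Fli1+ library left out and was lost with any of the other 4 left out (adjusted p between 0.0690 and 0.0866).

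Prdm16 and its relative mecom were the 2 calls among 18 genes of the reporter and the LMO2 and PRDM16 axis. At an unadjusted p under 0.05 by limma, 5 of the 18 were higher and 2 lower. Over all genes the called share was 6.36%, so 2 of 18 is a small count to set against it. PRDM16, as the table spells the zinc-finger regulator prdm16, had 138 and 125 FPKM in High-Fli1+, against 41.2 and 41.9 in Low-Fli1+ and 17.1 and 20.4 in Fli1- libraries (log2 fold change of 1.64 with SE 0.24, adjusted p = 0.0190). Mecom, which encodes the closest relative of Prdm16, had 153 and 103 FPKM in High-Fli1+, against 32.5 and 49.8 in Low-Fli1+ and 8.44 and 10.9 in Fli1- libraries (log2 fold change of 1.61 with SE 0.34, adjusted p = 0.0469). Both genes stood highest in High-Fli1+, next in Low-Fli1+ and lowest in Fli1- libraries, with no overlap. Both High-Fli1+ libraries lay above both Low-Fli1+ libraries at 18.8% of all genes, and the share with the full order was not counted. Both calls remained without Low-Fli1+ replicate 2 and neither without any of the other 5 libraries. Neither call remained with array weights or without the variance trend, and the mecom call was also lost with a pseudocount of 0.1 and with the replicate block. Only 1 of the 2 calls remained with no filter, with the filter over all 6 libraries and with quantile normalization.

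Lmo2, an adaptor of transcription complexes in blood and endothelium, was not called. It had 3.17 and 1.17 FPKM in High-Fli1+, against 0 and 4.28 in Low-Fli1+ and 12.99 and 10.7 in Fli1- libraries (log2 fold change 0.39, adjusted p = 0.805), and the sign turned to -0.81 without Low-Fli1+ replicate 1 and to -0.080 without High-Fli1+ replicate 1. Its partner gene tal1 had 5.67 and 6.30 FPKM in High-Fli1+, against 9.45 and 5.22 in Low-Fli1+ (log2 fold change -0.21), with overlap. Etv2, an ETS gene at the head of the endothelial program, had 2.57 and 4.22 FPKM in High-Fli1+, against 0 and 0 in Low-Fli1+ (adjusted p = 0.0862), and its relative erg had 13.2 and 8.24 FPKM in High-Fli1+, against 1.49 and 1.74 in Low-Fli1+ (adjusted p = 0.0851).

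Signalling genes that were called were FGF receptors, secreted inhibitors and a BMP target. In the Wnt and FGF list 5 were called higher and 0 lower by limma (17 and 0 at an unadjusted p under 0.05), of 35 tested, with a median of 0.87. Calls made up 14.3% of the tested members, against 6.36% of all genes. Fgfr3, the FGF receptor that restrains cartilage growth in mammals, had 117 and 110.3 FPKM in High-Fli1+, against 24.7 and 29.4 in Low-Fli1+ (log2 fold change of 2.04 with SE 0.27, adjusted p = 0.0154). Fgfr2 had 268 and 247 FPKM in High-Fli1+, against 97.9 and 108 in Low-Fli1+ (log2 fold change of 1.31 with SE 0.23, adjusted p = 0.0305), and fgfrl1a, for an FGF receptor without a kinase domain, had 79.5 and 78.9 FPKM in High-Fli1+, against 35.3 and 24.4 in Low-Fli1+ (log2 fold change of 1.40 with SE 0.30, adjusted p = 0.0475). Frzb and sfrp1a encode secreted Wnt antagonists. Frzb had 34.0 and 22.4 FPKM in High-Fli1+, against 6.37 and 5.11 in Low-Fli1+ (log2 fold change 2.09, adjusted p = 0.0442), and sfrp1a had 101 and 72.7 FPKM in High-Fli1+, against 32.3 and 31.3 in Low-Fli1+ (log2 fold change 1.40, adjusted p = 0.0442). In each of the 5 genes the populations did not overlap, as at 18.8% of all genes in this direction. Without Low-Fli1+ replicate 2, 2 of the 5 calls remained, and without any other library none did. A pseudocount of 0.1 kept 2, and array weights kept 1.

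In the hedgehog and BMP list 2 were called higher and 0 lower by limma (14 and 0 at an unadjusted p under 0.05), of 36 tested, with a median of 0.75. The calls are 5.56% of the list, against 6.36% of all genes. Grem2b, for a secreted BMP antagonist, had 18.6 and 22.8 FPKM in High-Fli1+ libraries, was listed at 0 in both Low-Fli1+ libraries and had 0.898 and 0.553 in Fli1- libraries (adjusted p = 0.0131). Id1, a target of BMP signals, had 447 and 349 FPKM in High-Fli1+, against 99.1 and 159 in Low-Fli1+ (log2 fold change of 1.64 with SE 0.33, adjusted p = 0.0407). No hedgehog ligand, receptor or Gli gene was called, and ihha, the Indian hedgehog ligand of cartilage, had 3.74 and 3.63 FPKM in High-Fli1+, against 0 and 1.28 in Low-Fli1+ (adjusted p = 0.236).

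Red cell genes fell in High-Fli1+ cells relative to Low-Fli1+ cells, and their summed level was highest in Fli1- cells. Of 30 names 24 were found in the table and 23 passed the filter, and 0 were called higher and 14 lower by limma (0 and 17 at an unadjusted p under 0.05), with a median of -2.07. The called share was 60.9%, against 6.36% of all genes. Hbae3, an embryonic alpha globin, had 57.9 and 32.7 FPKM in High-Fli1+, against 2685 and 3979.5 in Low-Fli1+ and 32964 and 24615 in Fli1- libraries (log2 fold change of -6.20 with SE 0.47, adjusted p = 0.00554). The embryonic beta globin hbbe1.1 had 0.494 and 7.52 FPKM in High-Fli1+, against 77.3 and 393 in Low-Fli1+ (log2 fold change -5.62, adjusted p = 0.0300), and its relative hbbe2 had 2.91 and 10.4 FPKM in High-Fli1+, against 123 and 263 in Low-Fli1+ (log2 fold change -4.76, adjusted p = 0.0132). In every globin gene called, the 3 populations did not overlap. Both High-Fli1+ libraries lay below both Low-Fli1+ libraries at 29.9% of all genes, and the share with the full order was not counted.

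Other red cell functions went with the globins. Cahz, a carbonic anhydrase of red cells, had 0.904 and 1.24 FPKM in High-Fli1+, against 86.6 and 93.4 in Low-Fli1+ (log2 fold change of -5.46 with SE 0.25, adjusted p = 0.00286). Alas2, the first enzyme of heme synthesis in red cells, had 2.87 and 0.741 FPKM in High-Fli1+, against 120.1 and 94.1 in Low-Fli1+ (log2 fold change of -5.37 with SE 0.47, adjusted p = 0.00738). Slc4a1a, the anion exchanger of the red cell membrane, had 8.12 and 15.2 FPKM in High-Fli1+, against 106 and 112 in Low-Fli1+ (log2 fold change of -3.18 with SE 0.32, adjusted p = 0.00905), and fech, the last enzyme of heme synthesis, had 14.9 and 22.2 FPKM in High-Fli1+, against 101 and 59.19 in Low-Fli1+ (log2 fold change of -2.03 with SE 0.42, adjusted p = 0.0448). Summed over the list, the level was 269 and 269 FPKM in High-Fli1+, against 3682 and 5869 in Low-Fli1+ and 46440.0 and 36569 in Fli1- libraries. Of the 14 calls, 7 remained with Low-Fli1+ replicate 1 left out, 11 with replicate 2 left out, 2 and 2 with Fli1- replicate 1 or 2 left out, and 0 with either High-Fli1+ library left out. Globin RNA moved with the populations, and its part in the other differences was not tested.

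Neutrophil and macrophage genes were lower in High-Fli1+ cells, and here Low-Fli1+ and not Fli1- cells had the highest values. Of 50 names 48 were found in the table and 42 passed the filter, and 0 were called higher and 10 lower by limma (0 and 20 at an unadjusted p under 0.05), with a median of -1.63. Calls made up 23.8% of the tested members, against 6.36% of all genes. The mean log2(FPKM + 1) of the list was 2.66 and 2.77 in High-Fli1+, against 3.98 and 4.73 in Low-Fli1+ and 1.27 and 1.34 in Fli1- libraries. Each Low-Fli1+ library lay above each High-Fli1+ library, and those above each Fli1- library.

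Mpx, the myeloperoxidase of neutrophils, had 26.1 and 18.5 FPKM in High-Fli1+, against 214 and 251 in Low-Fli1+ and 0.662 and 0.828 in Fli1- libraries (log2 fold change of -3.34 with SE 0.31, adjusted p = 0.00839). Npsn, a neutrophil metalloprotease, had 43.4 and 45.4 FPKM in High-Fli1+, against 206 and 377 in Low-Fli1+ and 1.46 and 2.78 in Fli1- libraries (log2 fold change of -2.62 with SE 0.38, adjusted p = 0.0190). Mmp9 had 7.20 and 14.0 FPKM in High-Fli1+, against 125 and 193 in Low-Fli1+ and 0.723 and 1.81 in Fli1- libraries (log2 fold change of -3.82 with SE 0.47, adjusted p = 0.0133). In these 3 genes every High-Fli1+ library lay below the Low-Fli1+ libraries and above the Fli1- libraries. Both lay below both Low-Fli1+ libraries at 29.9% of all genes, and the share with the full order was not counted.

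Macrophage genes fell too. Mpeg1.1, a perforin-like gene of macrophages, had 0.670 and 0.412 FPKM in High-Fli1+, against 13.2 and 23.7 in Low-Fli1+ and 3.26 and 3.50 in Fli1- libraries (log2 fold change of -3.61 with SE 0.52, adjusted p = 0.0189), so High-Fli1+ libraries were the lowest of all. Csf1ra, the receptor for colony stimulating factor 1 on macrophages and yellow pigment cells, had 1.61 and 1.72 FPKM in High-Fli1+, against 21.5 and 24.3 in Low-Fli1+ (log2 fold change of -3.17 with SE 0.45, adjusted p = 0.0180). Spi1a and spi1b encode copies of the master myeloid factor PU.1. Spi1b had 9.91 and 10.3 FPKM in High-Fli1+, against 31.8 and 50.8 in Low-Fli1+ (log2 fold change -1.89, adjusted p = 0.0389), and spi1a had 3.70 and 3.31 FPKM in High-Fli1+, against 17.6 and 25.0 in Low-Fli1+ (log2 fold change -2.29, adjusted p = 0.0448). Coro1a, an actin regulator of white blood cells, had 38.1 and 36.9 FPKM in High-Fli1+, against 124 and 121 in Low-Fli1+ (log2 fold change of -1.68 with SE 0.26, adjusted p = 0.0223). Lyz, the lysozyme gene, had 28.6 and 66.0 FPKM in High-Fli1+, against 50.5 and 168 in Low-Fli1+, with overlap and without a call (adjusted p = 0.369). Of the 10 calls, 5 remained with Low-Fli1+ replicate 1 left out, 8 with replicate 2 left out, 0 and 0 with Fli1- replicate 1 or 2 left out, and 0 with either High-Fli1+ library left out.

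Other blood lineages gave single calls. These were 9.09% of the lymphoid and 5.26% of the stem cell and thrombocyte genes tested, against 6.36% of all genes. Among 11 lymphoid genes tested, ccr9b, a chemokine receptor gene, was lower, with 0 and 0.353 FPKM in High-Fli1+, against 8.71 and 5.65 in Low-Fli1+ (log2 fold change of -2.79 with SE 0.57, adjusted p = 0.0439), and 0 members were higher or lower otherwise by limma (0 and 5 at an unadjusted p under 0.05, ccr9b included). Among 19 stem cell and thrombocyte genes, thbs1b, a thrombospondin that platelets carry and matrix-forming cells also make, was higher, with 308 and 288 FPKM in High-Fli1+, against 55.2 and 50.6 in Low-Fli1+ and 9.91 and 14.2 in Fli1- libraries (log2 fold change of 2.47 with SE 0.26, adjusted p = 0.0102). The integrin gene itga2b, a defining marker of thrombocytes, had 2.78 and 0.591 FPKM in High-Fli1+, against 3.98 and 2.01 in Low-Fli1+, with overlap (adjusted p = 0.564).

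**Figure D5:**
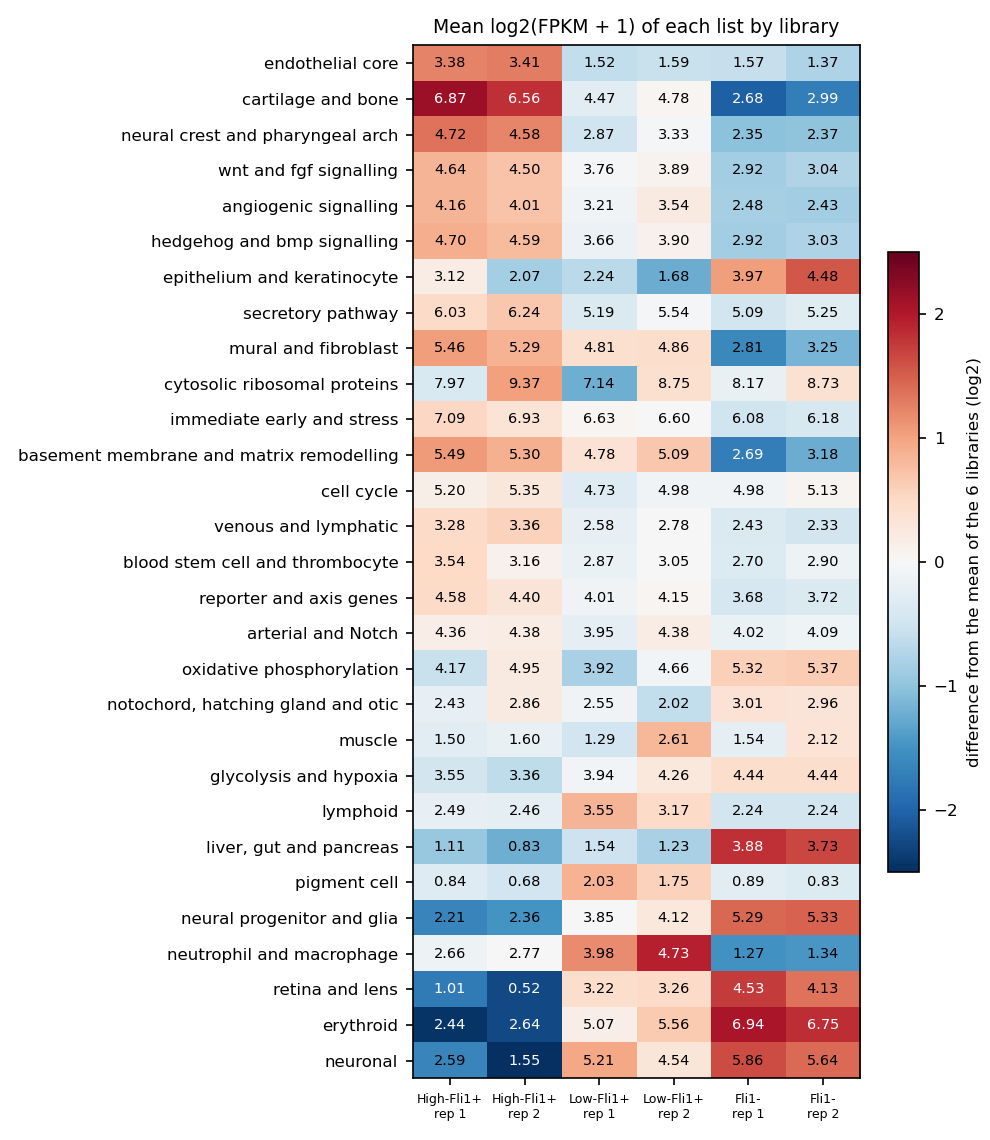
Mean log2(FPKM + 1) of the tested members of each of the 29 lists (rows) in each library (columns, with High-Fli1+ at the left, then Low-Fli1+ and Fli1-), coloured by its difference from the mean of the 6 libraries. Cartilage and endothelial rows are highest in the High-Fli1+ columns, myeloid genes in the Low-Fli1+ columns, and erythroid and neuronal genes in the Fli1- columns.

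Neuronal genes gave the most calls of any list. Of 38 names 38 were found in the table and 36 passed the filter, and 0 were called higher and 24 lower by limma (0 and 32 at an unadjusted p under 0.05), with a median of -2.97. The called share was 66.7%, against 6.36% of all genes. Elavl3, an RNA-binding protein that marks young neurons, had 16.3 and 5.17 FPKM in High-Fli1+, against 274 and 223 in Low-Fli1+ and 389 and 368 in Fli1- libraries (log2 fold change of -4.59 with SE 0.48, adjusted p = 0.00996). Neurod4, a proneural factor, had 2.57 and 1.44 FPKM in High-Fli1+, against 79.3 and 72.9 in Low-Fli1+ and 80.8 and 82.0 in Fli1- libraries (log2 fold change of -4.70 with SE 0.30, adjusted p = 0.00467). For these genes the Low-Fli1+ libraries lay near the Fli1- libraries and far above High-Fli1+.

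The calls covered the synapse, the axon and transmitters. Stxbp1a, which acts in synaptic vesicle fusion, had 2.86 and 1.52 FPKM in High-Fli1+, against 89.8 and 63.3 in Low-Fli1+ (log2 fold change of -4.62 with SE 0.36, adjusted p = 0.00570), and map1aa, a microtubule protein of neurons, had 3.36 and 1.03 FPKM in High-Fli1+, against 67.8 and 30.7 in Low-Fli1+ (log2 fold change of -3.97 with SE 0.52, adjusted p = 0.0151). Stmn1b, a tubulin regulator of young neurons, had 20.3 and 15.7 FPKM in High-Fli1+, against 231 and 178 in Low-Fli1+ (log2 fold change of -3.43 with SE 0.26, adjusted p = 0.00554). The vesicular glutamate transporter gene slc17a6b and the vesicular inhibitory transporter gene slc32a1 had log2 fold changes of -2.99 and -2.83 (adjusted p = 0.0210 and 0.0315). Summed over the list, the level was 316 and 137 FPKM in High-Fli1+, against 2350.3 and 1642 in Low-Fli1+ and 3983 and 3432 in Fli1- libraries. Of the 24 calls, 6 remained with Low-Fli1+ replicate 1 left out, 17 with replicate 2 left out, 1 and 1 with Fli1- replicate 1 or 2 left out, and 0 with either High-Fli1+ library left out.

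Outside the lists, neuronal genes were also among the largest and most abundant lower calls. Dscaml1, a cell adhesion molecule of neurons, had 4.98 and 0.794 FPKM in High-Fli1+, against 125 and 90.8 in Low-Fli1+ (log2 fold change of -5.04 with SE 0.56, adjusted p = 0.0113). Syt5b, a synaptotagmin, had 1.15 and 0.253 FPKM in High-Fli1+, against 51.5 and 49.9 in Low-Fli1+ (log2 fold change of -4.98 with SE 0.36, adjusted p = 0.00554), and ctnnd2b, a delta-catenin of neurons, had 2.96 and 3.45 FPKM in High-Fli1+, against 142 and 110.0 in Low-Fli1+ (log2 fold change of -4.91 with SE 0.26, adjusted p = 0.00346). Gng13b, a G protein gamma subunit, had 1.77 and 0.529 FPKM in High-Fli1+, against 82.0 and 108 in Low-Fli1+ (log2 fold change of -5.53 with SE 0.38, adjusted p = 0.00520). In each, the High-Fli1+ values were a small fraction of the Low-Fli1+ values.

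By level, the 6 first of the lower calls were hbae3, ckbb, zfr, marcksl1b, npsn and nova2, of which the neutrophil gene npsn is given above. Ckbb, the brain form of creatine kinase, had 168 and 166 FPKM in High-Fli1+, against 1055 and 822 in Low-Fli1+ (log2 fold change of -2.47 with SE 0.29, adjusted p = 0.0131). Nova2, a splicing regulator of neurons, had 42.0 and 33.7 FPKM in High-Fli1+, against 309.8 and 205 in Low-Fli1+ (log2 fold change of -2.71 with SE 0.30, adjusted p = 0.0118). Marcksl1b, which binds actin at the membrane, had 101 and 132 FPKM in High-Fli1+, against 309.6 and 283 in Low-Fli1+ (log2 fold change of -1.35 with SE 0.26, adjusted p = 0.0388), and zfr, a zinc finger RNA-binding protein, had 142 and 165 FPKM in High-Fli1+, against 349.6 and 356 in Low-Fli1+ (log2 fold change of -1.20 with SE 0.25, adjusted p = 0.0452). Of the 12 largest lower calls, 9 remained without Low-Fli1+ replicate 1, 10 without replicate 2, 5 without either Fli1- library and 0 without either High-Fli1+ library.

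Neural progenitor and glial genes moved in the same direction. Of 32 names 30 were found in the table and 26 passed the filter, and 0 were called higher and 9 lower by limma (0 and 16 at an unadjusted p under 0.05), with a median of -1.59. Calls made up 34.6% of the tested members, against 6.36% of all genes. Pax6a and pax6b encode homeobox regulators of eye and brain. Pax6a had 6.92 and 4.13 FPKM in High-Fli1+, against 88.6 and 74.7 in Low-Fli1+ (log2 fold change -3.69, adjusted p = 0.00601), and pax6b had 4.95 and 0.755 FPKM in High-Fli1+, against 80.8 and 35.1 in Low-Fli1+ (log2 fold change -4.07, adjusted p = 0.0240). Slc1a3b, a glutamate transporter of glia, had 1.43 and 1.52 FPKM in High-Fli1+, against 36.6 and 14.2 in Low-Fli1+ (log2 fold change of -3.28 with SE 0.48, adjusted p = 0.0193). Sox2, a factor of neural stem cells, had 0 and 1.36 FPKM in High-Fli1+, against 9.87 and 15.6 in Low-Fli1+ and 36.6 and 46.1 in Fli1- libraries (log2 fold change of -3.13 with SE 0.54, adjusted p = 0.0289). For sox2 the Low-Fli1+ libraries lay between the other populations. Of the 9 calls, 4 remained with Low-Fli1+ replicate 1 left out, 5 with replicate 2 left out, 0 and 0 with Fli1- replicate 1 or 2 left out, and 0 with either High-Fli1+ library left out.

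Eye genes included the largest lower fold change of the naming rule. Gnb3a, the transducin beta subunit of cone photoreceptors, had 1.15 and 0.631 FPKM in High-Fli1+, against 186 and 116 in Low-Fli1+ and 145 and 84.4 in Fli1- libraries (log2 fold change of -6.30 with SE 0.39, adjusted p = 0.00467). Crx and otx5 are photoreceptor homeobox genes. Crx had 2.00 and 3.93 FPKM in High-Fli1+, against 123 and 67.5 in Low-Fli1+ (log2 fold change -4.59, adjusted p = 0.00738), and otx5 had 3.13 and 3.29 FPKM in High-Fli1+, against 74.6 and 69.6 in Low-Fli1+ (log2 fold change -4.12, adjusted p = 0.00467). Vsx1, a homeobox gene of bipolar cells, had 4.26 and 0 FPKM in High-Fli1+, against 59.05 and 68.4 in Low-Fli1+ (log2 fold change of -4.82 with SE 0.74, adjusted p = 0.0215). Rs1a, a retinoschisin, had 0.300 and 0 FPKM in High-Fli1+, against 73.4 and 39.3 in Low-Fli1+ (log2 fold change of -5.59 with SE 0.41, adjusted p = 0.00554). In these 5 genes both High-Fli1+ libraries lay below the other 4. At 29.9% of all genes they lay below both Low-Fli1+ libraries.

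Of 23 retina and lens genes tested, 0 were called higher and 9 lower by limma (0 and 13 at an unadjusted p under 0.05), with a median of -1.89. The called share was 39.1%, against 6.36% of all genes. Summed over that list, the level was 33.4 and 15.3 FPKM in High-Fli1+, against 611 and 459.7 in Low-Fli1+ and 804 and 605 in Fli1- libraries. The cone transducin gene gnat2 was listed at 0 in both High-Fli1+ libraries and had 14.9 and 8.85 FPKM in Low-Fli1+ libraries (adjusted p = 0.0179). Of the 9 calls, 4 remained with Low-Fli1+ replicate 1 left out, 7 with replicate 2 left out, 2 and 2 with Fli1- replicate 1 or 2 left out, and 0 with either High-Fli1+ library left out. The part of neural and retinal RNA in the other differences was not tested.

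Markers of further tissues gave 1 or 2 calls in each list. The called share was 3.85% for epithelium, 3.1% for muscle, 15.4% for pigment cells and 10% for liver, gut and pancreas, against 6.36% of all genes. Epithelium gave 1 higher call of 26 tested (4 higher and 0 lower at an unadjusted p under 0.05), the keratin gene krt8, with 923 and 885 FPKM in High-Fli1+, against 308 and 357 in Low-Fli1+ (log2 fold change of 1.44 with SE 0.27, adjusted p = 0.0338). The defining epithelial gene epcam had 16.1 and 2.24 FPKM in High-Fli1+, against 6.28 and 5.28 in Low-Fli1+ and 111 and 233 in Fli1- libraries, and cdh1 had 2.34 and 0.389 FPKM in High-Fli1+, against 3.68 and 0.0342 in Low-Fli1+ and 37.2 and 43.8 in Fli1- libraries, with overlap between the reporter-positive populations for both. Muscle gave 1 lower call of 32, the tropomyosin gene tpm2, with 12.6 and 6.19 FPKM in High-Fli1+, against 31.6 and 34.4 in Low-Fli1+ (log2 fold change of -1.78 with SE 0.37, adjusted p = 0.0448). Pigment cells gave 2 lower calls of 13, csf1ra and aox5, an aldehyde oxidase gene of yellow pigment cells, which was listed at 0 in both High-Fli1+ libraries and had 4.68 and 5.59 FPKM in Low-Fli1+ libraries (adjusted p = 0.0453). Among 20 liver, gut and pancreas genes, the forkhead gene foxa3 was higher, with 20.6 and 22.4 FPKM in High-Fli1+, against 0.0423 and 0 in Low-Fli1+ and 6.69 and 8.24 in Fli1- libraries (log2 fold change of 4.46 with SE 0.45, adjusted p = 0.00914). Apoa1a, an apolipoprotein gene, was lower, with 0 in both High-Fli1+ libraries, against 4.79 and 11.98 FPKM in Low-Fli1+ libraries (adjusted p = 0.0389).

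Calls among general cell programs were 2.44% of cell cycle genes and 5% of immediate early and stress genes, against 6.36% of all genes. Of 41 cell cycle genes tested, tyms, for the thymidylate synthase of DNA synthesis, was higher, with 36.4 and 39.2 FPKM in High-Fli1+, against 12.3 and 10.6 in Low-Fli1+ and 17.3 and 22.3 in Fli1- libraries (log2 fold change of 1.64 with SE 0.29, adjusted p = 0.0307), and 0 were lower by limma (5 higher and 0 lower at an unadjusted p under 0.05). The proliferation marker mki67 had 64.7 and 60.3 FPKM in High-Fli1+, against 36.8 and 46.4 in Low-Fli1+ (adjusted p = 0.288). Of 40 immediate early and stress genes, klf2a was higher and myca, a copy of the Myc gene, was lower, with 28.3 and 21.98 FPKM in High-Fli1+, against 56.5 and 77.7 in Low-Fli1+ (log2 fold change of -1.38 with SE 0.29, adjusted p = 0.0460). The 2 copies lay on opposite sides, since mycb had 154 and 195 FPKM in High-Fli1+, against 77.3 and 97.0 in Low-Fli1+ (log2 fold change 0.99, adjusted p = 0.0734), which was not called.

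Ribosomal protein genes differed between the replicates of a population. Of 75 tested, 0 were called by limma (1 higher and 0 lower at an unadjusted p under 0.05), against 6.36% of all genes. Of the 75, 71 had a positive log2 fold change, against 43.1% of all genes, and their median was 0.59, against -0.19. Their mean log2(FPKM + 1) was 7.97 and 9.37 in High-Fli1+, against 7.14 and 8.75 in Low-Fli1+ and 8.17 and 8.73 in Fli1- libraries, so replicate 2 was higher than replicate 1 in each population. Without Low-Fli1+ replicate 1 the median was -0.07, and without High-Fli1+ replicate 2 it was -0.06, against 1.14 without Low-Fli1+ replicate 2 and 1.25 without High-Fli1+ replicate 1. Rps29, rps21, rps28 and rpl38, which encode short ribosomal proteins, were at 0 in Low-Fli1+ replicate 1, and rps29 had 92.6 and 218 FPKM in High-Fli1+, against 0 and 181 in Low-Fli1+.

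Of 62 oxidative phosphorylation genes, ndufa11, a subunit of respiratory complex I, was higher, with 12.03 and 20.2 FPKM in High-Fli1+, against 0 and 1.84 in Low-Fli1+ and 20.6 and 28.0 in Fli1- libraries (log2 fold change of 3.30 with SE 0.61, adjusted p = 0.0338), and the list's median was 0.07. This 1 call is 1.61% of the list, against 6.36% of all genes. Lsm6 and lsm7, for small proteins that bind U6 RNA, were called too, and were picked out after their values were seen. Lsm6 had 21.8 and 23.4 FPKM in High-Fli1+, against 0 and 0.236 in Low-Fli1+ and 30.9 and 42.1 in Fli1- libraries (adjusted p = 0.00750), and lsm7 had 14.1 and 13.2 FPKM in High-Fli1+, was at 0 in both Low-Fli1+ libraries and had 14.3 and 20.6 in Fli1- libraries (adjusted p = 0.0124). For ndufa11, lsm6 and lsm7 no High-Fli1+ library lay above both Fli1- libraries, and the Low-Fli1+ libraries were at or near 0. The part of the zeros in Low-Fli1+ libraries was not tested.

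Glycolysis gave lower calls, among them isoforms known from neurons and brain. Of 46 names 46 were found in the table and 39 passed the filter, and 0 were called higher and 6 lower by limma (3 and 13 at an unadjusted p under 0.05), with a median of -0.64. Calls made up 15.4% of the tested members, against 6.36% of all genes. Eno2, the neuronal enolase, had 2.89 and 0.680 FPKM in High-Fli1+, against 27.9 and 15.7 in Low-Fli1+ and 44.2 and 29.2 in Fli1- libraries (log2 fold change of -3.10 with SE 0.54, adjusted p = 0.0298). Aldocb, a brain-type aldolase, had 6.91 and 3.004 FPKM in High-Fli1+, against 37.5 and 26.1 in Low-Fli1+ (log2 fold change of -2.52 with SE 0.42, adjusted p = 0.0261), and pgam1b, a phosphoglycerate mutase, had 2.73 and 2.03 FPKM in High-Fli1+, against 21.3 and 12.7 in Low-Fli1+ (log2 fold change of -2.38 with SE 0.48, adjusted p = 0.0426). Pkma, a pyruvate kinase, had 25.1 and 20.6 FPKM in High-Fli1+, against 81.0 and 106 in Low-Fli1+ (log2 fold change of -1.98 with SE 0.27, adjusted p = 0.0171). Eno1a, another enolase gene, had 13.2 and 5.93 FPKM in High-Fli1+, against 63.1 and 40.5 in Low-Fli1+ (log2 fold change of -2.38 with SE 0.45, adjusted p = 0.0358). The widely used genes aldoaa and ldha were not called. Aldoaa had 56.6 and 78.0 FPKM in High-Fli1+, against 62.7 and 66.8 in Low-Fli1+ (adjusted p = 0.942), and ldha had 38.2 and 24.0 FPKM in High-Fli1+, against 38.9 and 57.8 in Low-Fli1+ (adjusted p = 0.298). Of the 6 calls, 1 remained with Low-Fli1+ replicate 1 left out, 3 with replicate 2 left out, 0 and 0 with Fli1- replicate 1 or 2 left out, and 0 with either High-Fli1+ library left out.

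Some of the highest values against 0 belonged to single libraries. Of the 6 entries at 0 in both Low-Fli1+ libraries with the highest mean in High-Fli1+ libraries, SNORA3 alone had both High-Fli1+ libraries above 0. The microRNA precursor entry dre-mir-454b had 884 and 0 FPKM in High-Fli1+ libraries, and mettl10 had 0 and 748. In the other direction, U12 and notum1b were at 0 in both High-Fli1+ libraries, against 492 and 0 FPKM for U12 and 440.1 and 0 FPKM for notum1b in Low-Fli1+ libraries. Hbbe3 was at 0 in both High-Fli1+ libraries, against 16.5 and 137 FPKM in Low-Fli1+ libraries, and so above 0 in each of them. None of these entries was called except SNORA3 and hbbe3 (adjusted p = 0.00286 and 0.0227). In all, 120 and 119 genes were at 0 in 1 High-Fli1+ library while its pair had at least 5 FPKM, against 1000 and 570 between the Low-Fli1+ libraries.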

How the data were processed

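The 6 RNA-seq libraries were deposited as 1 table of FPKM per gene, which the authors made before depositing it. Per the labels' protocols, libraries were made from 100 ng of RNA after selection of poly-A RNA. The part of this selection in the values of small nucleolar RNA, microRNA and Metazoa_SRP entries was not tested. The aligner, genome build and annotation are not given in the sources used here. Depth cannot be read from FPKM. Of 29144 entries, 18 named by a calendar date were left out. Of the remaining 29126 names, 24281 (83.4%) were found in a reference list, by name alone. Paralogues of similar sequence, such as the globins, may share reads.

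Tests used log2(FPKM + 1), with no scaling between libraries. Genes with a mean of at least 0.5 FPKM over the High-Fli1+ and Low-Fli1+ libraries were tested. A linear model with a term for population was fitted to all 6 libraries with limma 3.58.1 (R 4.3.3), whose moderated variances used an intensity trend, with 3 residual and 3.37 prior degrees of freedom. Every adjusted p is from limma, by Benjamini-Hochberg over the 18208 genes, and a gene was called under 0.05. The procedure was run on simulated data with the same spread of a gene in every library, unlike the libraries here. That run required the right sign and size of change and does not show how many calls here are false.

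The 29 lists hold 1036 gene names. The table has 973 of them, 870 were tested, and 35 names stand in more than 1 list. They and the genes were chosen with earlier results of these data known. Genes named are the 12 higher and 12 lower calls with the largest fold changes, no overlap between populations, a settled name and a mean of 5 FPKM or more where they are higher. Added were fli1a, fli1b, lmo2, PRDM16, each list's 4 largest calls (without a call, up to 2 genes), the 6 calls in each direction with the highest level, and the 6 genes in each direction at 0 in 1 population with the highest level in the other. Further genes named were chosen after their values were seen. Alternatives were 2 pseudocounts, 3 filters, 2 scalings, no variance trend, fewer libraries, a replicate block, array weights, each library left out, and 1 added after the values were seen.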

Additional observations from a re-analysis of the deposited data

How the results depend on the processing

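Against 1158 calls (253 higher, 905 lower, with 52 higher and 81 lower among list members), a model of the 4 High-Fli1+ and Low-Fli1+ libraries gave 10 (5 and 5, list members 1 and 3) and array weights gave 367 (58 and 309, list members 18 and 37). Leaving out 1 library gave between 0 and 2511 calls, of which 0 to 960 were higher and 0 to 1551 lower, and among list members 0 to 106 higher and 0 to 72 lower. Median-ratio scaling gave 437 higher calls, 80 of them list members, and a pseudocount of 0.1 gave 33 higher list members. Without the 1748 genes at 0 in 1 library and at 5 FPKM or more in its pair, a setting chosen after seeing the data, there were 1952 calls (505 higher and 1447 lower, with 84 higher list members). Apart from that setting, the total stayed between 826 and 1245 where the filter, scaling, pseudocount or variance trend was changed. Of 173 genes named (sox9b was not among those followed), 11 turned sign when 1 library was left out, and none of these was called. Their log2 fold changes then ranged between -0.81 and 1.59 for lmo2 (-0.080 without High-Fli1+ replicate 1), -0.73 and 3.36 for Metazoa_SRP, -0.19 and 0.27 for aldoaa, -1.12 and 1.06 for cdh1, -0.21 and 0.21 for col1a2, -1.06 and 1.34 for epcam, -0.58 and 0.17 for tal1, -0.78 and 4.90 for rpl38, -0.79 and 6.90 for rps21, -0.20 and 5.72 for rps28, and -0.34 and 7.16 for rps29. Cdh1 also turned to 0.62 with a pseudocount of 0.1 and to 0.13 with median-ratio scaling, tal1 to 0.11 with median-ratio scaling and to 0.21 with quantile normalization, col1a2 to -0.42 with quantile normalization, and col5a2a to 0.072 with median-ratio scaling. The cause was not tested. No list median changed sign under either scaling. With 2 libraries per population and unknown depth, differences in low genes are poorly determined.

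The replicate number as a block gave 1141 calls (228 higher and 913 lower), of which 981 were among the 1158. Deviations of same-numbered libraries from their population means correlated at 0.122 between High-Fli1+ and Low-Fli1+, 0.0937 between High-Fli1+ and Fli1- and 0.110 between Low-Fli1+ and Fli1-, across genes. The labels do not say what a number shares, so the numbers are not taken as pairs.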
